A study of Torulaspora delbrueckii with 9 samples.

Results

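Peaks of the origin recognition complex (ORC) beside tRNA genes were described in the budding yeast Torulaspora delbrueckii. A peak was counted if any of its bases lay within 1000 bp of a gene annotated as tRNA, and 420 of the 1900 peaks in 6 lists met this rule. They numbered 54 of 263 and 57 of 300 peaks in the Orc1 lists, 74 of 339 and 80 of 342 in the Orc2 lists, and 99 of 408 and 56 of 248 in the Orc4 lists. The annotation holds 193 tRNA genes among 5174 genes, with a median length of 73 bp.

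The 6 lists come from chromatin immunoprecipitation and sequencing (ChIP-seq) of 3 ORC subunits, with 2 libraries each. Orc1 carried a MYC tag (strains LRY3204 and LRY3211), while Orc2 (LRY3142 and LRY3143) and Orc4 (LRY3138 and LRY3139) carried a V5 tag. All cells grew at 30 °C in rich glucose medium and were cross-linked with 1% formaldehyde for 1 h. Orc1 peaks were called against genomic input and Orc2 and Orc4 peaks against 1 mock immunoprecipitate, both from the untagged strain JRY10156. Between Orc1 and the other subunits, subunit, tag and control therefore cannot be told apart, while Orc2 and Orc4 share tag and control. The labels leave unexplained the word SIR in the peak names of Orc1 library 1, Kos3V5 in those of Orc1 library 2, and a control strain number other than JRY10156 in those of all 6 lists. Peak names of Orc1 library 2 also number its input differently from the labels, and all peak names hold the word subsample, without saying what was sampled. The 2 libraries of a subunit are called technical replicates in the series' design text, although their strain numbers differ, so p-values measure a spread that may be technical. Fold enrichment is the authors' ratio of immunoprecipitate to control at the summit, the highest point of a peak. The lists held 248 to 408 peaks, most in Orc4 library 1 and fewest in Orc4 library 2. They give no read counts, so the depth is unknown, as is any subsampling of reads.

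ORC binds the DNA at which replication starts and loads the replicative helicase there. tRNA genes are short, are transcribed by RNA polymerase III, and have their promoter inside the transcribed sequence, where the factor TFIIIC binds and brings in TFIIIB. They occur in families of near-identical copies spread over the chromosomes, and in Saccharomyces cerevisiae they are known as sites where replication forks slow. The letter that ends each gene id was read as the amino acid, in the one-letter code.

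tRNA genes had a nearby peak more often than genes in general in every list. A peak lay within 1000 bp of 67 of 193 tRNA genes in Orc1 library 1 (34.7%) and of 68 in Orc1 library 2 (35.2%), where 11.5% and 12.4% of all genes had one. In the Orc2 lists 80 (41.5%) and 90 (46.6%) tRNA genes had a peak, against 14.0% and 14.9% of all genes. Orc4 library 1 gave the highest count, 103 tRNA genes (53.4%, all genes 17.8%), and Orc4 library 2 the lowest, 65 (33.7%, all genes 11.4%).

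The share exceeded that of the 4970 protein-coding genes in 6 of 6 lists. Protein-coding genes had a peak in 10.5% and 11.4% of cases in the Orc1 lists, 13.0% and 13.6% in the Orc2 lists, and 16.4% and 10.6% in the Orc4 lists. The difference averaged 28.3 ± 5.67 percentage points (SD, n = 6 libraries; exact two-sided sign-flip permutation p = 0.03125, the smallest that 6 libraries allow). Adjusted over the 5 tests of this kind, p was 0.0781, which does not pass 0.05. All libraries share the same genome positions and 4 share a control, so they are not fully independent. With windows around gene midpoints, which have the same length for every gene, the difference was 32.3 points. This lowered mainly the protein-coding share, in Orc1 library 1 from 10.5% to 7.14%, while the tRNA share there went from 34.7% to 34.2%. Midpoints of protein-coding genes lie inside those genes, so this setting does not allow for the position of tRNA genes between them.

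**Figure D1:**
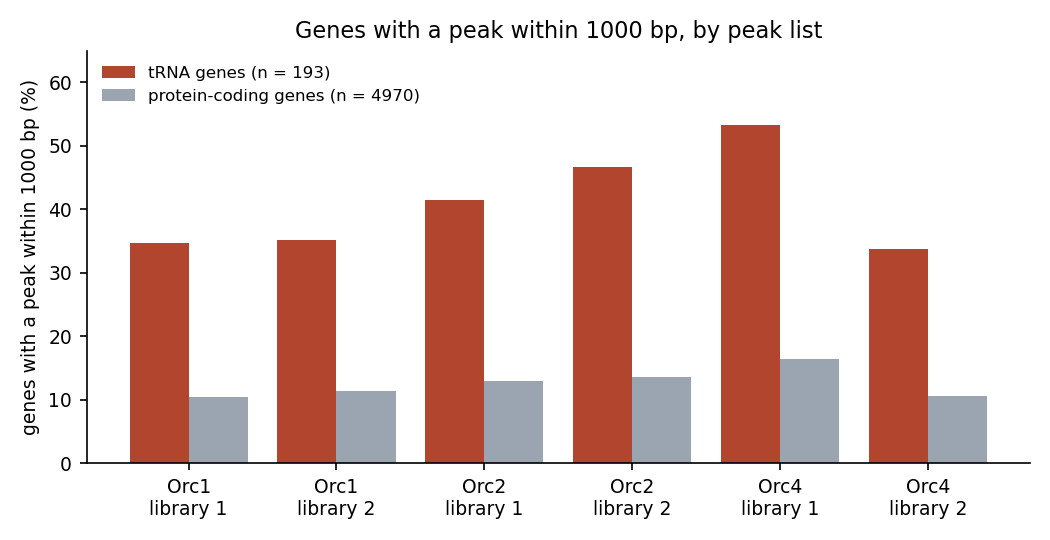
Bars give the percentage of genes with a peak within 1000 bp in each of the 6 lists, for the 193 tRNA genes and the 4970 protein-coding genes. tRNA genes stand between 33.7% and 53.4%, above protein-coding genes in every list.

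The number of lists with a peak divided the 193 genes. In all 6 lists 61 tRNA genes had a peak (31.6%), against 9.84% of all genes. Another 54 had a peak in 1 to 5 lists (28.0%, all genes 12.1%), and 78 in none (40.4%, all genes 78.1%). The 54 were made up of 27 genes in 1 list, 15 in 2, 4 in 3, 2 in 4 and 6 in 5. The 61 genes lay at 52 places once tRNA genes up to 1000 bp apart were counted together. Merging overlapping peaks of all lists gave 542 regions, of which 111 lay beside a tRNA gene. Of the 198 regions present in 6 lists 51 (25.8%) did so, and of the 202 regions found in 1 list 31 (15.3%).

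With weak peaks left out, the counts lay closer together. With peaks of at least 3-fold, a limit chosen after the values were seen, 63 and 60 tRNA genes had a peak in the Orc1 lists, 58 and 63 in the Orc2 lists, and 63 and 58 in the Orc4 lists. All genes then gave 10.1% and 11.0% in the Orc1 lists, 10.5% and 10.3% in the Orc2 lists, and 11.4% and 10.1% in the Orc4 lists. Over all peaks the Orc1 lists averaged 34.97% of tRNA genes and the Orc2 and Orc4 lists 43.8%. This difference of −8.81 points was within the spread of the libraries (two-sided exact permutation p = 0.333 over 15 splits, smallest possible 0.0667, adjusted p = 0.5 over 3 tests). It turned to 0.518 points with peaks of at least 3-fold.

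The 10 tRNA genes with the highest minimum fold enrichment over the lists showed how strong the shared peaks were. First was TDEL0Btrna12A, an alanine tRNA gene on chromosome 2 (1169962 to 1170034) between MSS1 and MRPL3, named for a mitochondrial tRNA modification protein and a mitochondrial ribosomal protein of Saccharomyces. Its peak had a fold enrichment of 14.0 and 12.9 in the Orc1 lists, 37.3 and 45.1 in the Orc2 lists, and 48.0 and 35.4 in the Orc4 lists. The summit stood 271 to 364 bp from the gene in all 6 lists.

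TDEL0Gtrna6E, a glutamate tRNA gene on chromosome 7 (680052 to 680123) left of HRI1, had the highest single value beside any tRNA gene. Its strongest peak had 11.0 and 10.9 with Orc1, 52.4 and 49.5 with Orc2, and 56.0 and 38.1 with Orc4. The summit of that peak stood 1172 and 1219 bp from the gene with Orc1 and 1120 to 1165 bp with Orc2 and Orc4. The serine tRNA gene TDEL0Atrna8S lies on chromosome 1 (689359 to 689440) between RAD30, named for a translesion DNA polymerase, and HKR1. Its peak had 9.77 and 11.7 with Orc1, 38.0 and 36.3 with Orc2, and 45.2 and 34.3 with Orc4, with summits 132 to 171 bp away. At each of these 3 genes the Orc1 values were the lowest of the 6, and they are relative to another control than the Orc2 and Orc4 values.

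A single region on chromosome 4, around INO4, named for a regulator of phospholipid synthesis, accounted for 3 of the 10. TDEL0Dtrna4R (989520 to 989591) and TDEL0Dtrna2N (990131 to 990204) lie left of INO4 and TDEL0Dtrna5R (991319 to 991390) right of it. Their common strongest peak had 10.3 and 10.8 with Orc1, 29.2 and 31.6 with Orc2, and 33.5 and 24.2 with Orc4. The nearest summit stood 412 to 546 bp from TDEL0Dtrna5R and 569 to 703 bp from TDEL0Dtrna2N. It was 1182 to 1316 bp from TDEL0Dtrna4R in 5 lists, and in Orc4 library 1 a separate peak of 1.70 had its summit inside that gene. When the summit itself had to lie within 1000 bp, TDEL0Dtrna4R kept a peak in 1 list, and with a window of 500 bp in 3 lists.

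Subunits were closer together at a pair of glutamine tRNA genes on chromosome 6, TDEL0Ftrna4Q (931991 to 932062) and TDEL0Ftrna5Q (932100 to 932171), between SEC7 and the small heat shock gene HSP42. Their common peak had 11.4 and 10.9 with Orc1, 11.8 and 12.5 with Orc2, and 17.1 and 12.3 with Orc4. The last of the 10 were TDEL0Dtrna1A on chromosome 4 (316763 to 316835), with 10.9 and 13.4 with Orc1 and 22.4 to 27.9 in the other lists, and TDEL0Btrna10E on chromosome 2 (500682 to 500753), with 9.51 and 9.14 with Orc1 and 16.2 to 20.2 in the other lists. TDEL0Dtrna1A kept a peak in 2 lists when the summit had to lie within 1000 bp, and TDEL0Gtrna6E in 4. Over all 61 genes the minimum fold enrichment ran from 2.09 to 12.9, with a median of 7.60.

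**Figure D2:**
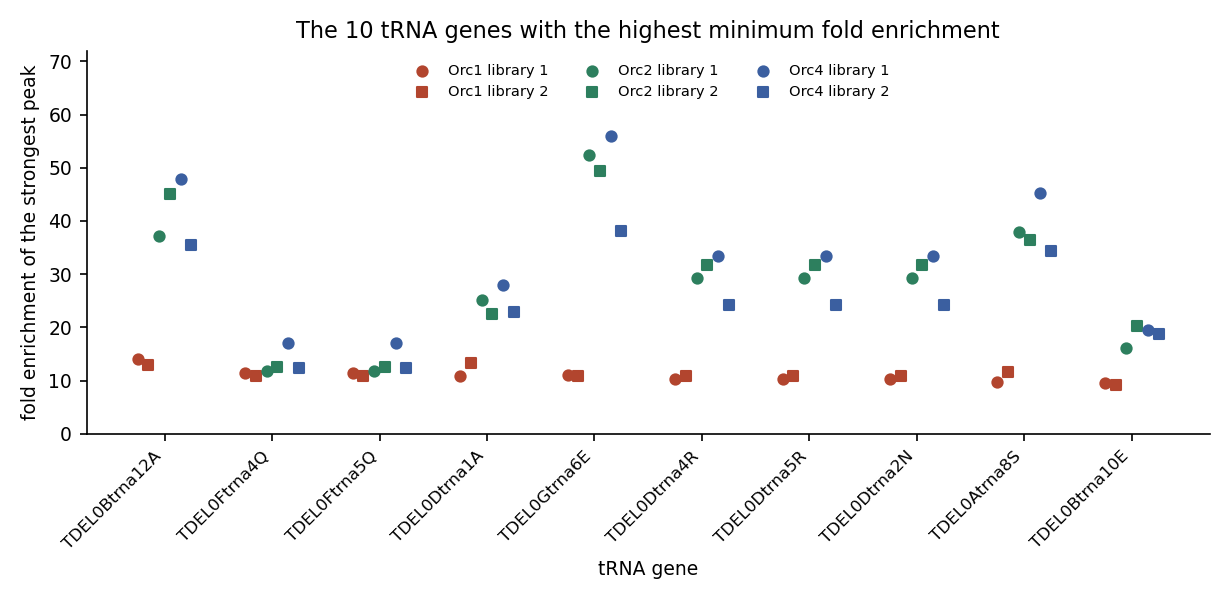
Points give the fold enrichment of the strongest peak within 1000 bp of each of the 10 tRNA genes with the highest minimum, 1 point per list (circles library 1, squares library 2). Orc1 values lie between 9.14 and 14.0, and genes that share a peak have the same values.

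The 4 lowest minima of the 61 belonged to 3 tRNA genes near chromosome ends and 1 interior gene. TDEL0Gtrna4V, 6.06 kb from the left end of chromosome 7, had 8.71 and 10.7 with Orc1, where the nearest summit was 4467 and 4547 bp away in a wide peak, and 2.09 to 2.79 in the other lists, with summits 0 to 88 bp from the gene. TDEL0Ftrna2V and TDEL0Ftrna5T, 3.26 and 2.78 kb from the right end of chromosome 6, had 8.33 and 8.28 with Orc1 and 2.41 to 3.54 in the others. Their Orc1 values came from peaks 3559 and 3946 bp wide, with summits 2497 and 2495 bp from TDEL0Ftrna5T, the nearer of these 2 genes. The interior gene, TDEL0Dtrna1N between CYB2 and YKT6, had 2.74 and 2.23 with Orc1 and 2.52 to 3.75 in the others. These 4 genes were chosen after their values were seen.

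Genes with a peak in all 6 lists rarely had the summit on the gene, with 0 of 61 in each Orc1 list, 3 and 7 in the Orc2 lists, and 3 and 0 in the Orc4 lists. In the Orc1 lists the nearest summit was inside a tRNA gene for 0 of the 67 and 0 of the 68 genes with a peak, and within 100 bp for 7 and 6. These are 3.63% and 3.11% of all 193 tRNA genes, where 2.51% and 2.74% of all genes had a summit that close. Among genes with a peak, they are 10.4% and 8.82% of the tRNA genes, against 21.9% and 22.1% of all genes, most of which are longer. For the 61 genes in all lists the median distance from gene to nearest summit was 390 and 398 bp with Orc1, 243 and 276 bp with Orc2, and 276 and 317 bp with Orc4. Quartiles ran from 232 to 614 bp in Orc1 library 1 and from 83 to 444 bp in Orc2 library 1. Averaged over lists, 5 of the 61 genes had the summit within 100 bp, 42 between 100 and 600 bp, and 14 farther away.

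The median averaged 394 bp in the Orc1 lists and 278 bp in the Orc2 and Orc4 lists, a difference of 116 bp. Both Orc1 lists lay above each of the 4 others, but 15 splits cannot give an exact permutation p under 0.0667, the value obtained (adjusted p = 0.2). The difference was 32.0 bp with −log10 q (the authors' adjusted significance of a peak) of at least 10, 43.8 bp with at least 3-fold, and 61.2 bp with the summit of the strongest peak in place of the nearest, where medians were 393 and 470 bp with Orc1, 360 and 344 bp with Orc2, and 377 and 400 bp with Orc4. It was 205.5 bp with a window of 2000 bp, and 104 to 151 bp when single libraries were left out.

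The 5 genes with the nearest summits were TDEL0Btrna14G, TDEL0Atrna9S, TDEL0Etrna4F, TDEL0Btrna13K and TDEL0Ftrna2H. At TDEL0Btrna14G, a glycine tRNA gene on chromosome 2 (1110498 to 1110568), the summit stood 47 and 48 bp away in the Orc1 lists and 20 or 21 bp away in the 4 others. Fold enrichment there was 4.90 and 4.59 with Orc1, 22.4 and 23.2 with Orc2, and 32.1 and 20.9 with Orc4. TDEL0Ftrna2H, a histidine tRNA gene on chromosome 6 (299327 to 299398) right of the Hsp70 gene SSA2, had summits 73 and 75 bp away with Orc1 and 74 to 135 bp away in the other lists, with 8.68 and 9.93 with Orc1 and 24.1 to 40.7 in the other lists.

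In 3 lists, many summits, mostly of weak peaks, lay on the tRNA gene itself. The nearest summit was inside the gene for 14 of the 80 tRNA genes with a peak in Orc2 library 1, 21 of 90 in Orc2 library 2 and 27 of 103 in Orc4 library 1, and for 0 of 65 in Orc4 library 2. Of the peaks with a summit inside a tRNA gene, 14 were under 3-fold and 0 at or above it in Orc2 library 1, 16 and 5 in Orc2 library 2, and 25 and 2 in Orc4 library 1. A summit lay within 100 bp of 31 tRNA genes in Orc2 library 1 (16.1% of 193, all genes 3.87%), 34 in Orc2 library 2 (17.6%, all genes 3.83%), 47 in Orc4 library 1 (24.4%, all genes 4.77%) and 12 in Orc4 library 2 (6.22%, all genes 2.63%). Among genes with a peak, this was 38.8%, 37.8%, 45.6% and 18.5% of the tRNA genes, against 27.5%, 25.7%, 26.9% and 23.0% of all genes, in the same order of lists. Of all peaks under 3-fold, those with a summit within 100 bp of a tRNA gene made up 23 of 124 (18.5%) in Orc2 library 1, 24 of 134 (17.9%) in Orc2 library 2 and 35 of 177 (19.8%) in Orc4 library 1. The same count was 4 of 44 (9.09%) in Orc4 library 2, and 1 of 55 (1.82%) and 2 of 85 (2.35%) in the Orc1 lists. tRNA genes with 100 bp on each side cover 53.6 kb of 9221 kb (0.582%). Among peaks of at least 3-fold the share was 1.86% to 5.19% in the 6 lists. Whether the mock control, the tag or the number of peaks called has a part in these weak peaks was not tested. Copies of a tRNA gene are nearly alike, and how reads that fit several copies were placed is not given in the sources used here.

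**Figure D3:**
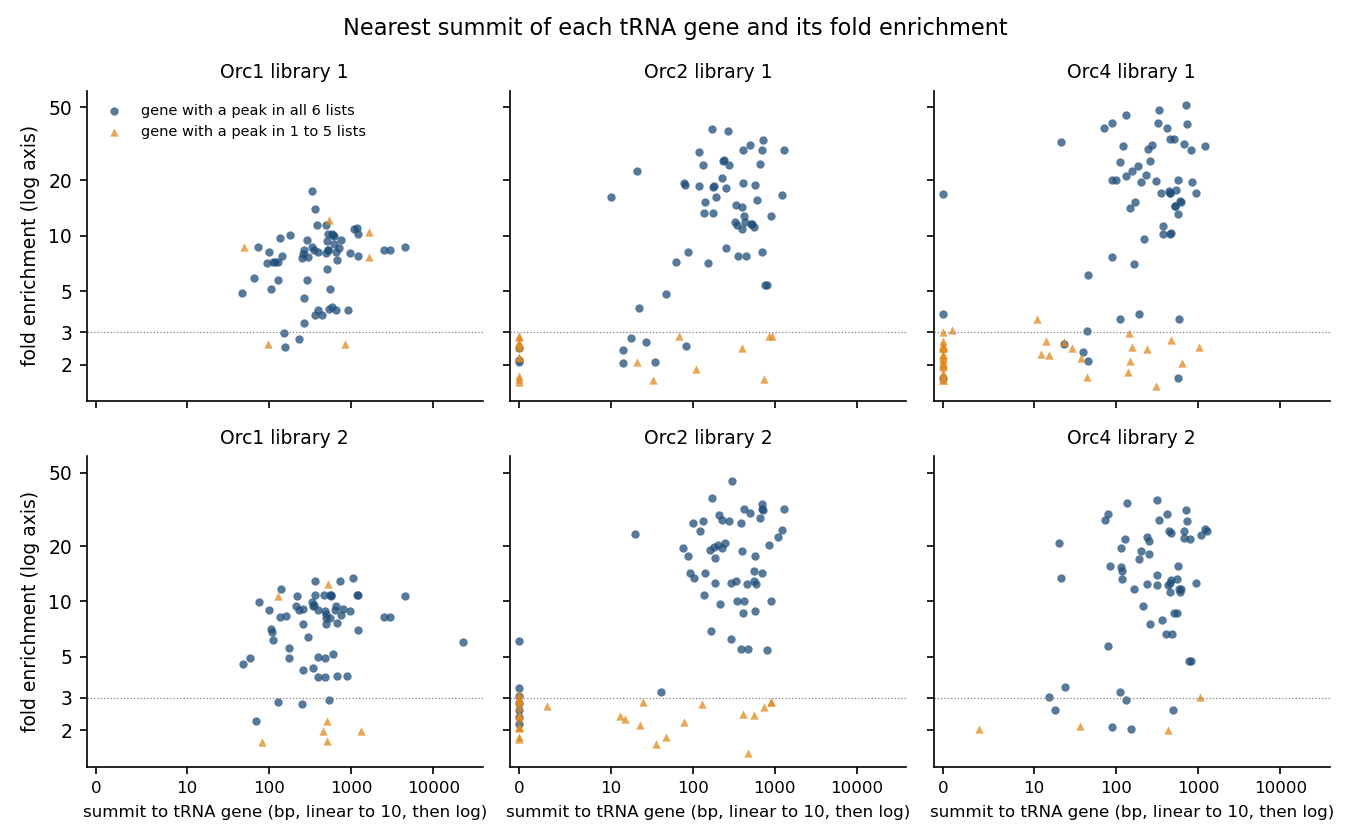
Each point is a tRNA gene with a peak in that list, with the distance from the gene to the nearest summit on the x axis (0 is inside the gene, linear to 10 bp and logarithmic beyond) and the fold enrichment of that peak on a logarithmic y axis. Genes with a peak in all 6 lists mostly lie beyond 100 bp and above the dotted line at 3-fold, while those in 1 to 5 lists lie mostly under it, except in Orc1 library 1, and many of them lie at 0 bp in Orc2 library 1, Orc2 library 2 and Orc4 library 1.

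Of the 54 genes with a peak in 1 to 5 lists, 45 had it in Orc2 or Orc4 lists only (23.3% of tRNA genes, all genes 9.2%). These 45 were found mostly in Orc4 library 1 (35 genes) and Orc2 library 2 (21), less in Orc2 library 1 (11), and in Orc4 library 2 for 2 genes. Their highest fold enrichment had a median of 2.29. The summit was inside the gene in at least 1 list for 30 of them and within 50 bp for 39. For 41 of the 45, the peak with the nearest summit did not reach a −log10 q of 10 in any Orc2 or Orc4 list. With that minimum applied to all peaks, 63 and 61 tRNA genes had a peak in the Orc1 lists (all genes 10.3% and 11.3%), 60 and 65 in the Orc2 lists (10.6% and 10.5%), and 66 and 59 in the Orc4 lists (12.1% and 10.2%).

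Peaks in the pair of Orc1 lists without any Orc2 or Orc4 peak were found at 0 tRNA genes, and at 0.85% of all genes. A single gene, TDEL0Btrna6Y, had a peak in 1 Orc1 list alone (library 2, 1.76-fold, summit 514 bp away). A single gene, TDEL0Btrna11E on chromosome 2 (501732 to 501803), had peaks in all 4 Orc2 and Orc4 lists and none in Orc1. This rests on the 1000 bp limit, since the closest Orc1 peaks lay 1111 and 1102 bp away and its Orc4 library 2 peak 919 bp away. With a window of 2000 bp the gene had a peak in 6 lists. Its highest values, 20.2 in Orc2 library 2 and 19.5 in Orc4 library 1, belonged to the strong peak beside its neighbour TDEL0Btrna10E. The values of its other lists, 4.07 in Orc2 library 1 and 3.02 in Orc4 library 2, came from peaks with summits 22 and 15 bp from that neighbour. Peaks with the summit nearest to TDEL0Btrna11E had 1.89 and 2.21 in the Orc2 lists and 2.43 in Orc4 library 1, at 111, 78 and 235 bp.

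TDEL0Btrna11E and the 4 genes that follow had the highest single values among genes with a peak in 1 to 5 lists. TDEL0Dtrna3S on chromosome 4 (574249 to 574348) had 10.5 in Orc1 library 1 with the summit 1638 bp away and 23.9 in Orc4 library 1. The value of 23.9 came from the farther of 2 peaks in that list. Summits nearest to the gene in the Orc2 and Orc4 lists stood 0 to 4 bp away. Their peaks had 2.56 and 3.16 with Orc2 and 3.09 and 2.02 with Orc4. TDEL0Gtrna5V, 35.5 kb from the left end of chromosome 7, had 12.1 and 12.5 with Orc1 in peaks 2687 and 5318 bp wide, 1.64 and 2.07 with Orc2, and 3.0 in Orc4 library 1. TDEL0Gtrna8T, 1.65 kb from the same end, had 8.71 and 10.7 with Orc1 in peaks 6274 and 10251 bp wide, 2.81 and 3.0 with Orc2, and 3.54 in Orc4 library 1. TDEL0Etrna9K, beside RPO31, had 7.63 in Orc1 library 1 and 1.66 and 2.67 in the Orc2 lists.

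Both kinds of peak occurred side by side at some genes with a peak in all 6 lists. At TDEL0Gtrna6E the Orc2 and Orc4 lists held a narrow peak at the gene, 300 to 438 bp wide, with 2.47 and 2.81 with Orc2 and 3.76 and 2.02 with Orc4. Its summit was inside the gene in 3 of these lists and 152 bp away in Orc4 library 2. The strong peak was listed apart, with its summit 1120 to 1165 bp from the gene. The Orc1 lists had the strong peak alone, 1172 and 1219 bp away. TDEL0Dtrna1A likewise had a peak of 2.07 in Orc2 library 1 and 2.33 in Orc4 library 1 at 35 and 40 bp, beside peaks of 25.2 and 27.9 at 1085 and 1078 bp. In all, 17 of the 61 genes had more than 1 peak within the window in some list, 2 genes in each Orc1 list, 11 and 9 in the Orc2 lists, and 10 and 6 in the Orc4 lists. Not all were of this kind, as 13 of the 17 had the nearer summit within 100 bp in some list. The farther peak was the stronger for 1 of 2 genes in each Orc1 list. It was so for 8 of 11 and 5 of 9 in the Orc2 lists, and 7 of 10 and 3 of 6 in the Orc4 lists.

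At TDEL0Etrna12V, a valine tRNA gene on chromosome 5 (75008 to 75081), the distance separated the Orc1 libraries. The nearest summit stood 330 bp away in Orc1 library 1 and 23159 bp away in Orc1 library 2, whose peak there was 31550 bp wide, and 470 to 507 bp away in the others. The class of a gene rests on the gap in each list, and some gaps lay near the 1000 bp limit. In the Orc1 lists the closest peaks were 913 and 1023 bp from TDEL0Dtrna3S, and 795 and 941 bp from TDEL0Gtrna6E. With a window of 2000 bp, TDEL0Dtrna3S and TDEL0Etrna9K had a peak in 6 lists, and with 500 bp TDEL0Gtrna6E had one in 4. By the closest peak in any list, the 3 genes inside the limit with the farthest peaks were TDEL0Atrna4K, TDEL0Btrna7N and TDEL0Ctrna8G, at 685, 554 and 483 bp. The 3 outside it with the nearest were TDEL0Ctrna5N, TDEL0Ftrna6L and TDEL0Etrna7I, at 1004, 1546 and 1563 bp.

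Peaks beside tRNA genes were compared with the other peaks of the same list. The median fold enrichment beside tRNA genes and elsewhere was 7.71 against 5.89 in Orc1 library 1 and 7.56 against 5.66 in Orc1 library 2. In the Orc2 lists it was 11.3 against 6.73 and 8.81 against 6.17, and in the Orc4 lists 3.75 against 3.94 and 13.2 against 9.47. The log2 difference averaged 0.41 ± 0.27 (SD, n = 6) and was positive in 5 of 6 libraries, which did not pass the threshold (exact sign-flip permutation p = 0.0625, adjusted p = 0.104). Orc4 library 1, the list with most weak peaks on tRNA genes, was the exception, and without it the mean was 0.51. Between subunits this log2 difference averaged 0.40 with Orc1 and 0.42 with Orc2 and Orc4 (exact permutation p = 1). The value changed when weak peaks were left out. With −log10 q of at least 10 the log2 difference was 0.066 and 0.015 with Orc1, while the 4 other lists held 0.28 to 0.48. With at least 3-fold it was 0.070 and 0.010 with Orc1, while the 4 other lists held 0.31 to 0.41. Orc1 minus Orc2 and Orc4 was then −0.32 and −0.31, each with an exact permutation p of 0.0667, the smallest that 15 splits allow.

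No difference in width passed the test. Median widths beside tRNA genes were 941 and 821 bp with Orc1, 677 and 609 bp with Orc2, and 616 and 817 bp with Orc4. Other peaks had 890 and 932 bp with Orc1, 587 and 566 bp with Orc2, and 596 and 769 bp with Orc4. The mean log2 difference was 0.057 ± 0.13 (SD, n = 6; exact sign-flip permutation p = 0.312, adjusted p = 0.312), and its sign changed with the peaks used. Any base of a peak could meet the 1000 bp rule, which a wide peak does more easily, so the comparison is not independent of the rule. With summits in the window the mean was −0.081.

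Summits of peaks beside tRNA genes lay outside every annotated gene in 83.3% and 86.0% of cases with Orc1, 78.4% and 67.5% with Orc2, and 64.6% and 89.3% with Orc4. For other peaks the shares were 69.9% and 68.7% with Orc1, 67.9% and 77.1% with Orc2, and 71.5% and 81.8% with Orc4. The difference averaged 5.37 ± 11.1 points (SD, n = 6) and was positive in 4 of 6 libraries (exact sign-flip permutation p = 0.25, adjusted p = 0.312). The 2 negative lists, Orc2 library 2 and Orc4 library 1, had the most summits inside tRNA genes. When only protein-coding genes counted as genes, the difference was 17.3 points and positive in 6 of 6 libraries (exact sign-flip permutation p = 0.03125, the smallest possible). Summits inside tRNA genes then counted as outside, which raised almost only peaks beside tRNA genes, so part of this difference follows from the counting rule. In Orc4 library 1 their share rose from 64.6% to 91.9%, while that of other peaks stayed at 71.5%.

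tRNA genes with a tRNA neighbour had peaks more often than lone ones. A gene was called paired if another tRNA gene lay within 1000 bp, which gave 158 lone genes and 35 paired genes in 16 groups of 2 and 1 group of 3. Lone and paired genes had a peak in 28.5% and 62.9% of cases in Orc1 library 1, in 29.1% and 62.9% in Orc1 library 2, in 34.8% and 71.4% in Orc2 library 1, and in 39.9% and 77.1% in Orc2 library 2. The shares were 49.4% and 71.4% in Orc4 library 1, and 28.5% and 57.1% in Orc4 library 2.

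Lone genes were below paired genes in 6 of 6 libraries, by a mean difference of −32.1 ± 5.79 points (SD, n = 6; exact sign-flip permutation p = 0.03125, the smallest possible, adjusted p = 0.0781, which does not pass 0.05). Members of a group can share a peak, and a group spans more sequence than a lone gene. Counting each group once gave −33.6 points, with 10 to 13 of 17 groups beside a peak. In 9 of the 17 groups every gene had a peak in all 6 lists, in 1 group some did, and in 7 none did. By class, 42 of 158 lone genes (26.6%) and 19 of 35 paired genes (54.3%) had a peak in all 6 lists, and 72 (45.6%) and 6 (17.1%) had none. Of the 45 genes with peaks in Orc2 or Orc4 lists only, 39 were lone (86.7%), near the 81.9% of all tRNA genes.

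**Figure D4:**
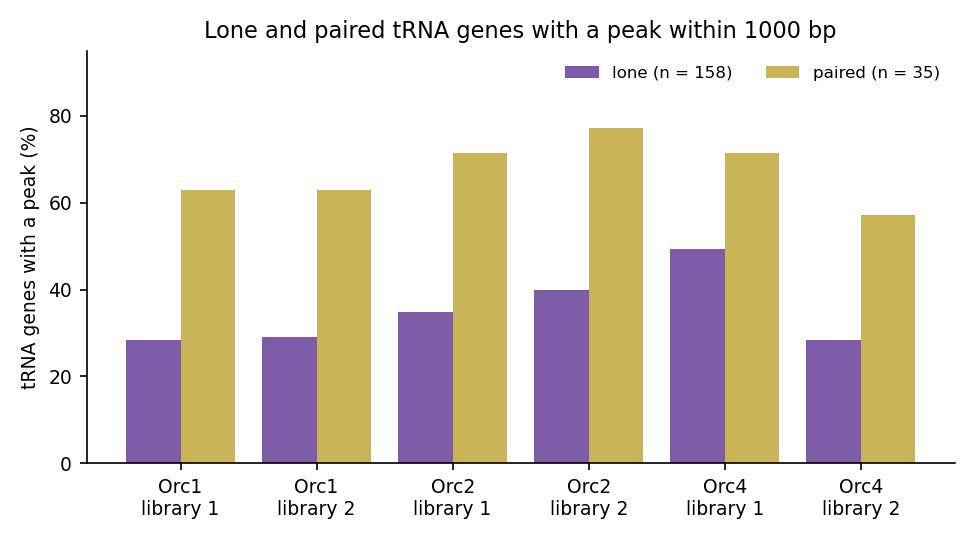
Bars give the percentage of lone (n = 158) and paired (n = 35) tRNA genes with a peak within 1000 bp in each list. Lone genes stand at 28.5% to 49.4% and paired genes at 57.1% to 77.1%.

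Peaks were not limited to genes of a few amino acids. Genes with a peak in all 6 lists occurred for 18 of 20 letters, and each of the 20 letters had at least 1 gene without any peak. The share in all 6 lists was highest for tryptophan (3 of 4 genes, 75%) and phenylalanine (4 of 6, 66.7%), followed by aspartate (5 of 9, 55.6%) and arginine (7 of 13, 53.8%). Tyrosine (7 genes) and cysteine (3 genes) had none in all 6 lists, and lysine had 2 of 15 (13.3%). Most letters have few genes, so that a single gene moves a share by many points, and no test was run between letters.

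Leucine tRNA genes, the most numerous at 16, had the lowest share above 0. TDEL0Atrna11L, on chromosome 1 (355027 to 355157) between ASI1 and the aspartate aminotransferase gene AAT2, was in all 6 lists, with 4.59 and 4.35 with Orc1, 8.57 and 9.68 with Orc2, and 9.63 and 7.5 with Orc4. Another 11 (68.8%) had peaks in 1 or 2 lists, none of them an Orc1 list or Orc4 library 2. These peaks had 1.66-fold to 2.97-fold enrichment, and the summit was inside the gene in 11 of 14 cases and at most 145 bp away. The remaining 4 leucine genes had no peak.

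**Figure D5:**
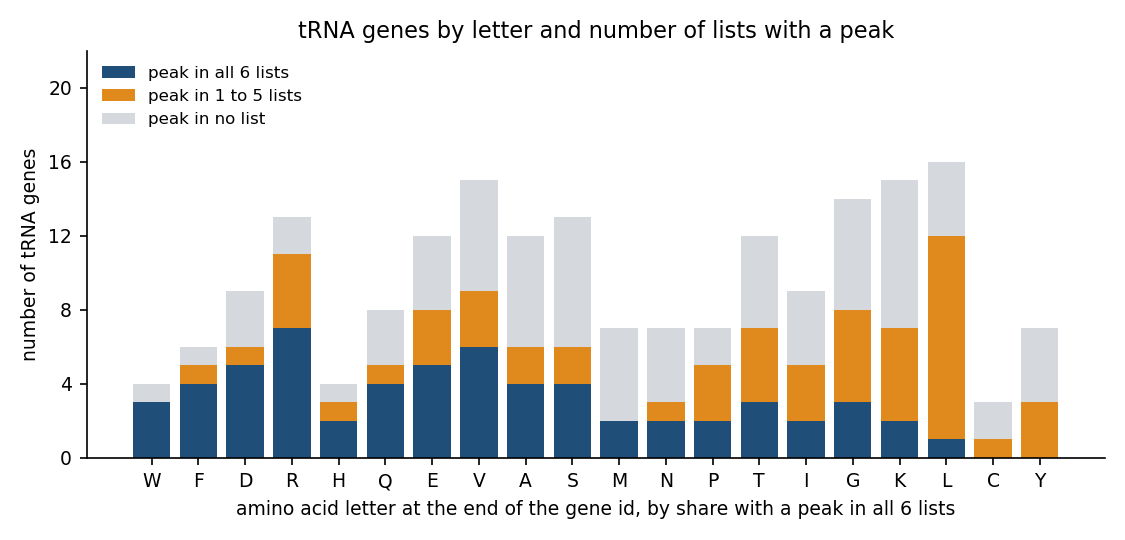
Stacked bars count the tRNA genes of each amino acid letter with a peak in all 6 lists, in 1 to 5 lists or in no list, ordered by the share in all 6 lists from tryptophan (W, 3 of 4) to cysteine (C) and tyrosine (Y), which have none. Leucine (L) has 11 genes in 1 to 5 lists and 1 in all 6.

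The setting of the 3 classes is given without a test. The space between the flanking genes that are not tRNA genes had a median of 1048 bp for genes in all 6 lists, 823 bp for those in 1 to 5 lists, and 824 bp for those in none. Median distance to the chromosome end was 299, 316 and 383 kb. Of the 7 tRNA genes within 20 kb of an end, 3 had a peak in all 6 lists and 4 in 1 to 5 lists. The share of all genes this near an end was not counted, so this cannot be read as particular to tRNA genes. Orc1 peaks at the left end of chromosome 7 were 6274 and 10251 bp wide. Genes for the machinery that makes and charges tRNA were counted in the same way, and with lists this short their counts in all 6 lists cannot be set apart from the share of all genes. Of 22 annotated genes for RNA polymerase III, its factors and its repressor, 1 had a peak in all 6 lists (4.55%, all genes 9.84%). This was RPC34, which encodes a polymerase subunit, with 4.50 and 4.58 with Orc1, 6.42 and 6.02 with Orc2, and 6.16 and 4.23 with Orc4. The polymerase subunit genes RPO31 (1.66 in Orc2 library 1) and RPC19 (2.504 in Orc4 library 1) had a peak in 1 list each, and 19 had none. Of 19 annotated aminoacyl-tRNA synthetase genes, 1 did (5.26%), the glutaminyl-tRNA synthetase gene GLN4, with 9.46 and 8.196 with Orc1 and 11.1 to 14.97 in the other lists. The phenylalanyl-tRNA synthetase gene FRS1 had a peak in 4 lists, with 4.19 and 3.28 with Orc2 and 3.94 and 2.28 with Orc4, and 17 had none.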

How the data were processed

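Per the submitters' processing notes, the authors worked with MACS2 2.2.7.1, Bowtie2 2.3.4.1 and cutadapt 2.10. Their settings and build: not given in the sources used here. Peaks had been called per library. Each deposited list gives positions, a summit, a fold enrichment (ratio to the control), −log10 p and −log10 q values and a score; the deposited score was not analysed. Sequence names were matched to the 8 chromosomes of assembly ASM24337v1 by their order; summits lay outside genes for 65.5% to 76.3% on the matched chromosome, the best match for 8 of 8, against at most 36.0% on others. Positions are 1-based. Distances are between closest bases.

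Python 3.11.15 with numpy 2.4.6 and pandas 2.3.3 was used. Differences within lists were tested with exact sign-flip permutation over libraries, and Orc1 against Orc2 and Orc4 with exact permutation of libraries, adjusted after Benjamini and Hochberg, and checked on simulated peaks. The fold enrichment of a tRNA gene is that of its strongest peak within 1000 bp, unless the nearest summit is named. tRNA genes were named by fixed rules (the 10 highest minima, the 5 nearest summits, subunit-specific genes, the 5 highest in 1 to 5 lists, and those next to the limit); others were chosen after their values were seen. The members and lists were chosen with earlier results of these data known. The gene table used gives no strand, so summits upstream and downstream of tRNA genes were not compared. The 2 inputs and the mock have no list of their own and were not tested.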

Additional observations from a re-analysis of the deposited data

How the results depend on the processing

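The counts of tRNA genes in all 6 lists (53 to 71) and of peaks beside tRNA genes per list (49.5 to 83.8) stayed within 1.5 times the reported values under the alternatives run. The excess over protein-coding genes and the deficit of lone genes kept their direction in each library under windows of 500 and 2000 bp, summits in place of peaks, stricter peaks, equal numbers of peaks and, for lone genes, other pair limits. Leaving out a library gave 26.5 to 29.3 points for the excess and −34.1 to −31.1 for lone minus paired genes, but 5 libraries cannot give an exact permutation p under 0.0625. The fold difference passed unadjusted, with exact permutation p = 0.03125, under a window of 2000 bp (0.51), −log10 q of at least 10 (0.26), equal numbers of peaks (0.32), means (0.26) and at least 3-fold (0.25), an alternative added after seeing the data. The fold difference did not pass with a window of 500 bp (0.38, exact permutation p = 0.0625). With summits in the window it fell to 0.21 (exact permutation p = 0.219). Summits outside protein-coding genes alone gave 17.3 points, since summits inside tRNA genes then count as outside. The width difference changed sign with summits in the window (−0.081), −log10 q of at least 10 (−0.037), equal numbers (−0.020) and at least 3-fold (−0.015). Orc1 minus Orc2 and Orc4 changed sign for the fold difference with a window of 500 bp (0.0039) and summits in the window (0.15), and ran from −0.18 to 0.096 without single libraries. It was −0.32 with −log10 q of at least 10 and −0.31 at 3-fold, both with exact permutation p = 0.0667, the smallest possible. For the share of tRNA genes it was 0.518 points at 3-fold. Where not stated, the cause was not tested. Of 162 values for 27 named tRNA genes, 135 stayed within 1.5 times; among the 10 genes with the highest minimum, TDEL0Dtrna4R (3 lists at 500 bp, 1 with summits in the window) and TDEL0Dtrna1A (2 with summits in the window) did not. Summits upstream and downstream were not run, for lack of strand.

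With the replicate number as a block, permuting within libraries of the same number, Orc1 minus Orc2 and Orc4 had exact p = 0.333 for the share (−8.81 points), 1 for the fold difference (−0.013) and 0.111 for the summit distance (116 bp), where 0.111 is the smallest possible. Differences between libraries 1 and 2 over the 61 genes correlated at −0.11 for Orc1 with Orc2, −0.17 for Orc1 with Orc4 and 0.24 for Orc2 with Orc4. Whether libraries of the same number were prepared together was not tested. The block changed no call.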

Other observations

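The 5S rRNA genes, which RNA polymerase III also transcribes, gave another picture than tRNA genes. Both annotated 5S genes had a peak within 1000 bp in both Orc1 lists and in Orc2 library 2, and in none of the other 3 lists. Of the 11 annotated rRNA genes, 7 had a peak in each Orc1 list, 2 in Orc2 library 2 and 0 in the remaining lists. Among all genes the share was 11.5% and 12.4% in the Orc1 lists and 14.9% in Orc2 library 2. In the remaining lists it was 14.0% (Orc2 library 1), 17.8% (Orc4 library 1) and 11.4% (Orc4 library 2). The rRNA genes are repeated, so they do not count as independent genes, and how reads of repeats were placed is not given in the sources used here.

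By chromosome, the share of tRNA genes with a peak in all 6 lists ran from 22.2% on chromosome 7 (4 of 18) to 40% on chromosome 6 (12 of 30). Genes with a peak in 1 to 5 lists were most frequent on chromosome 4 (13 of 33, 39.4%).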
